A study of Mus musculus with 6 samples.

Results

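Notch signalling and arterial identity were followed in the vessels of the mouse sciatic nerve through 10 genes: the receptors Notch1, Notch3 and Notch4, the ligands Dll4 and Jag1, the target genes Hey1, Hey2 and Heyl, and the gap junction genes Gja4 and Gja5. They were taken by symbol, and all 10 were found among the 41605 genes counted in each of the 6 libraries. The libraries were 3 independent cell suspensions of sciatic nerve from mice at postnatal day 1 (P1) and 3 at postnatal day 60 (P60), sequenced from the 3′ end of each RNA on the 10x Genomics platform, which counts captured RNA molecules by a unique molecular identifier (UMI). All mice, at both ages, carried 1 copy of a Cre transgene active in Schwann cells, with Rosa26-loxPstoploxP-YFP Tg/+ and βAct-DsRed Tg/+, on a C57bl/6J background, males and females were pooled in equal numbers, and DsRed-positive cells were sorted. The YFP reporter of the Cre was meant to mark Schwann cells and not vessels, and at P1 the sort also removed part of the Schwann cells. The nerves were not perfused.

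Notch signalling passes between touching cells. A ligand of the Delta or Jagged family on 1 cell binds a Notch receptor on its neighbour, the receptor is cleaved, and its freed inner part enters the nucleus and joins the DNA-binding protein Rbpj to switch on target genes such as the Hey repressors. In blood vessels this pathway is known for setting arterial against venous identity in endothelial cells, where Dll4, Notch1 and Notch4 act, and for the maturation of mural cells (pericytes and smooth muscle cells), where Notch3 is the main receptor and receives Jag1 from the endothelium. Gja4 and Gja5 encode connexins, the subunits of gap junctions, and are classical markers of arterial endothelium.

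Cells were clustered without the 10 genes and without other genes of the Notch pathway, and each class is named by likeness, from its markers. This gave 725 endothelial cells, 455 pericytes and 148 smooth muscle cells at P1, and 1816, 335 and 530 at P60. All 11 markers of the endothelial list, Pecam1 and Cdh5 among them, were found in endothelial cells, where they summed to 7470 to 10499 CPM per library (counts per 1000000 UMIs of the class in a library), and all 12 markers of the mural list were found in pericytes and smooth muscle cells. Mural sub-clusters were divided at the middle of the range from pericyte to smooth muscle markers, and the range was taken within each age. As a log2 difference of smooth muscle less pericyte markers it ran from -2.14 to 3.04 at P1 and from -0.47 to 6.06 at P60. The 2 classes were thus not cut at the same value at the 2 ages, and the part of this in their age changes was not tested. The line between them is not sharp either. A pericyte sub-cluster of 154 cells at P60 held more smooth muscle than pericyte marker RNA (a log2 difference of 1.09). Another, of 64 cells at P1, held a little more (0.15). Cells at P60 were shallower, with library medians of 3627 to 5561 UMIs per cell against 6077 to 6840 at P1, and P60 replicate 3 stood apart, with 16.2% of its cells above 10% mitochondrial counts against 2.97% and 4.84% in the other P60 libraries. Barcodes shared between 2 libraries numbered 32 at most. A further 270 cells at P60 carried endothelial and mural markers together and entered no class. Levels are given in CPM with the SD over 3 libraries, and adjusted p-values come from edgeR's quasi-likelihood test with Benjamini-Hochberg adjustment over all genes tested in a class. Since reads come from the 3′ end, a level is compared between cells for 1 gene and not between genes.

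Of the 3 receptors, Notch3 was the one of mural cells, and it rose with age in both mural classes. Notch3, at chromosome 17, 32120820 to 32166852 on the minus strand of GRCm38, is known for its role in pericytes and smooth muscle. In pericytes its level was 242, 215 and 239 CPM in P1 replicates 1, 2 and 3 and 493, 453 and 634 CPM at P60. Smooth muscle cells held 273, 291 and 257 CPM at P1 and 414, 339 and 445 CPM at P60. In both mural classes every P60 library lay above every P1 library. The log2 change was 1.16 ± 0.16 (SE) in pericytes, 2.23-fold, with an adjusted p of 3.95e-05, and 0.74 ± 0.18 in smooth muscle cells, 1.67-fold, with an adjusted p of 0.00633. Smooth muscle cells were above pericytes at P1 and below them at P60, with no overlap of libraries at either age, but the difference between the 2 age changes, -0.44 ± 0.17 for smooth muscle cells minus pericytes, did not pass the test (adjusted p = 0.0928), though it passed under 3 of 15 alternatives, library size alone among them (-0.66, adjusted p = 0.00661). In endothelial cells Notch3 was at 9.95 ± 0.70 CPM at P1 and 5.34 ± 2.12 CPM at P60, and 46 of its 57 endothelial UMIs at P1 lay in a sub-cluster of 102 cells led by genes of other classes, such as Acta2 and Dcn. The change over all endothelial cells, -0.86 ± 0.33, did not pass (adjusted p = 0.0550). It passed under 4 of 15 alternatives, in the same direction without P60 replicate 2 (-1.17, adjusted p = 0.0262) and in the opposite direction with 20 principal components in the clustering (0.90, adjusted p = 0.0142). All 12 mural markers were found in endothelial cells, and they summed to 272 to 518 CPM at P1 and 1455 to 2027 CPM at P60; their part in the Notch3 counts was not tested.

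**Figure D1:**
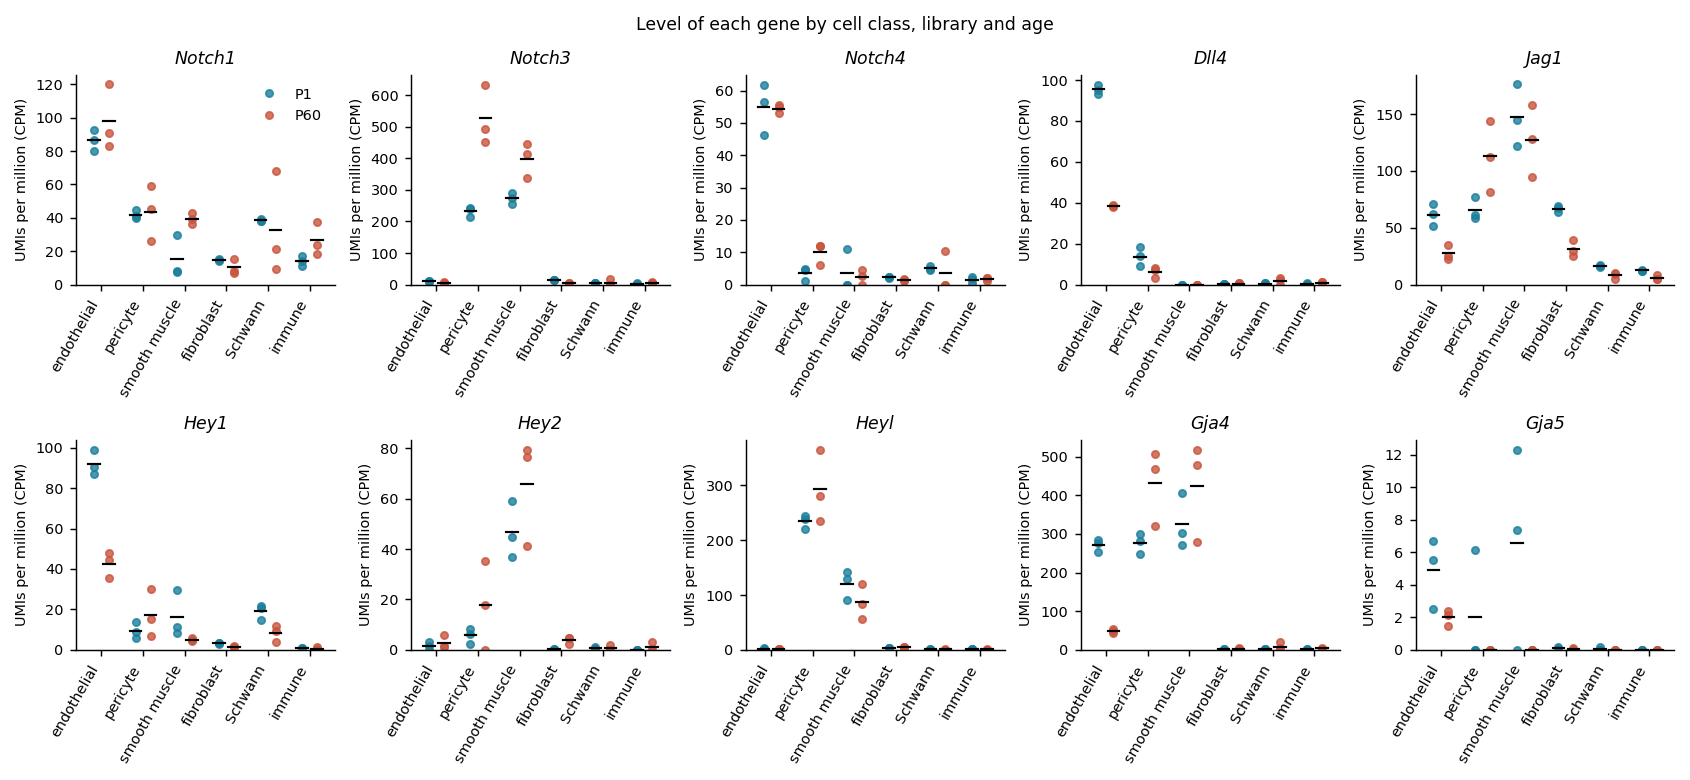
Level of each gene in CPM (vertical axis, from 0) in 6 cell classes (horizontal axis). Each point is 1 library, blue for P1 and red for P60, and the black line is the mean of 3 libraries. Notch1, Notch4, Dll4 and Hey1 are highest in endothelial cells, Notch3, Heyl and Hey2 in the mural classes, and Gja4 in all 3 vascular classes at P1 but mainly in mural cells at P60.

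The promoter of Notch3 is shown because this gene rose in both mural classes. RefSeq gives the 250 bases before and 50 bases after its start as chr17:32166841-32167140 (GRCm38.p6, minus strand). Capitals here and below would mark TGGGAA or its reverse complement TTCCCA, the core sequence recognised by Rbpj; the window of Notch3 holds neither.
Notch3: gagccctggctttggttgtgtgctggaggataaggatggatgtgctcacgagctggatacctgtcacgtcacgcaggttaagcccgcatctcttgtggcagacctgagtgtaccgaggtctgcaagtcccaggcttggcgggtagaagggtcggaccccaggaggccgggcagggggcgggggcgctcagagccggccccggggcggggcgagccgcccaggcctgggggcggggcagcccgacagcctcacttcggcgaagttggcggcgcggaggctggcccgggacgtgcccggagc

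Notch1 and Notch4, the endothelial receptors, did not pass the test for a change in endothelial cells. Notch1 (chromosome 2, 26457903 to 26516663, minus strand, where it overlaps Mir6996 on the same strand) stood at 92.8, 86.8 and 80.1 CPM in endothelial cells at P1 and at 90.6, 83.0 and 120 CPM at P60. Notch4 (chromosome 17, 34564268 to 34588503, plus strand), a receptor found mainly in endothelium, stood at 61.9, 56.5 and 46.2 CPM at P1 and at 55.4, 53.0 and 54.8 CPM at P60. For both genes the libraries of the 2 ages overlapped. The log2 change of Notch1 was 0.19 ± 0.15 (95% interval -0.11 to 0.49, adjusted p = 0.348) and that of Notch4 was 0.0048 ± 0.14 (95% interval -0.28 to 0.28, adjusted p = 0.982). Endothelial cells were the highest class for both receptors at both ages. For Notch4 the next class stood at 4.98 ± 0.74 CPM in Schwann cells at P1 and 9.95 ± 3.35 CPM in pericytes at P60.

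Outside the endothelium Notch1 was found at a lower level in several classes. Pericytes held 42.0 ± 2.50 CPM of it at P1 against 43.5 ± 16.6 CPM at P60, a log2 change of -0.0024 ± 0.29 (95% interval -0.58 to 0.57) that did not pass the test. In smooth muscle cells Notch1 was at 29.5, 8.20 and 7.44 CPM at P1, from 12 UMIs in all, and at 42.8, 36.3 and 39.3 CPM at P60, from 80 UMIs. Every P60 library lay above every P1 library. The log2 change of 1.55 ± 0.44 had an adjusted p of 0.0163, and it was lost without P1 replicate 2 (adjusted p = 0.0973), without P1 replicate 3 (0.110), with DESeq2 (0.137) and with another random seed in the clustering (0.242). The change in smooth muscle cells exceeded that in pericytes by 1.47 ± 0.51 with an adjusted p of 0.0490, which 10 of 15 alternatives did not keep. Endothelial markers summed to 294 to 450 CPM in smooth muscle cells at P1 and 212 to 489 CPM at P60, with all 11 of the list found at both ages, and their part in the Notch1 counts was not tested.

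Both ligands fell in endothelial cells, and Jag1 rose in pericytes. Dll4 (chromosome 2, 119325784 to 119335962, plus strand) encodes the Delta ligand of arterial endothelium and of sprouting tips. It stood at 97.8, 95.1 and 93.3 CPM in endothelial cells at P1 and at 38.0, 38.4 and 38.8 CPM at P60. The libraries of each age lay close together and the ages were far apart. The log2 change was -1.30 ± 0.12, 2.46-fold lower at P60, with an adjusted p of 6.68e-06. In the mural classes Dll4 was low or not found, at 13.7 ± 4.47 CPM in pericytes at P1 and 6.03 ± 2.63 CPM at P60, and smooth muscle cells held 0 UMIs in all 6 libraries, which allows 11.1 to 12.3 CPM per P1 library and 2.56 to 7.26 CPM per P60 library by a limit of 3 counts. Of the 32 pericyte UMIs at P1, 30 lay in 1 of the 3 pericyte sub-clusters. The promoter of Dll4, shown as that of a ligand that fell, is chr2:119325534-119325833 (GRCm38.p6, plus strand) and holds no TGGGAA or TTCCCA.
Dll4: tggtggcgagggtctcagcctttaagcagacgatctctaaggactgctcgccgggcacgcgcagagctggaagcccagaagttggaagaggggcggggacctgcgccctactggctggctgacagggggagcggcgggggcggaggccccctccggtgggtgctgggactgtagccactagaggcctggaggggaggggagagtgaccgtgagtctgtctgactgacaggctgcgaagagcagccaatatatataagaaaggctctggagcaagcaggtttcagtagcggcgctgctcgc

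Jag1 (chromosome 2, 137081456 to 137116644, minus strand) encodes the Jagged ligand that endothelial cells present to mural cells and that mural cells pass on among themselves. In endothelial cells it was 51.4, 70.9 and 62.4 CPM at P1 and 22.6, 25.02 and 34.8 CPM at P60, so that all P60 libraries lay below all P1 libraries. The log2 change was -1.15 ± 0.19, 2.22-fold lower, with an adjusted p of 0.000417. In pericytes Jag1 was 58.3, 61.2 and 77.4 CPM at P1 and 112, 81.8 and 144 CPM at P60, again without overlap but in the opposite direction. The log2 change there was 0.74 ± 0.23, 1.67-fold, with an adjusted p of 0.0258, and it did not pass without P1 replicate 1 (adjusted p = 0.0971), without P1 replicate 2 (0.106), without P60 replicate 3 (0.118) or with DESeq2 (0.178).

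Smooth muscle cells were the highest class for Jag1 at both ages. Their P1 mean was 148 ± 27.3 CPM and the P60 mean 127 ± 31.8 CPM, with a log2 change of 0.02 ± 0.26 (95% interval -0.49 to 0.52, adjusted p = 0.972). At P60 the libraries of smooth muscle cells and pericytes overlapped, at P1 they did not. Fibroblasts held 66.7 CPM of Jag1 at P1 and 31.4 CPM at P60. The 11 endothelial markers summed to 398 to 415 CPM in pericytes at P1 and 672 to 854 CPM at P60, and the smooth muscle markers to 6198 to 6311 CPM at P1, with 12 of 13 found and Pln at 0, and 9424 to 12385 CPM at P60, with 13 of 13 found. The pericyte markers themselves summed to 8534 to 9065 CPM and 8541 to 8619 CPM, with 10 of 13 found and Atp13a5 at 0. The part of these markers in the changes of Jag1, Notch3 and Gja4 in pericytes was not tested.

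Of the target genes, Hey1 was endothelial and fell, while Hey2 and Heyl were mural. All 3 encode repressors that bind DNA and are switched on by Notch. Hey1 (chromosome 3, 8663359 to 8667256, minus strand) was 98.9, 86.8 and 90.3 CPM in endothelial cells at P1 and 44.5, 47.8 and 35.5 CPM at P60. Every P60 library was below every P1 library. The log2 change was -1.09 ± 0.15, 2.13-fold lower, with an adjusted p of 0.000123. Pericytes held 9.53 ± 3.94 and 17.4 ± 11.6 CPM and smooth muscle cells 16.3 ± 11.5 and 5.11 ± 0.77 CPM at P1 and P60, from 11 to 23 UMIs per class and age, and Hey1 was too low there to be tested. Schwann cells came after endothelial cells in the order at P1, with 19.2 CPM.

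Heyl (chromosome 4, 123233556 to 123249875, plus strand), the Hey gene of mural cells, was highest in pericytes. It stood at 244, 221 and 238 CPM there at P1 and at 365, 235 and 281 CPM at P60, where replicate 2 fell within the P1 range. The change of 0.28 ± 0.15 did not pass the test (95% interval -0.025 to 0.58, adjusted p = 0.197), but without cells that carried markers of the other vascular class it was 0.46 with an adjusted p of 0.0456. Heyl in smooth muscle cells went from 120 ± 26.8 CPM at P1 to 86.5 ± 31.9 CPM at P60, with a change of -0.29 ± 0.28 that did not pass (adjusted p = 0.467). At both ages the libraries of pericytes lay above those of smooth muscle cells. Endothelial cells held 9 UMIs of Heyl at P1 and 15 at P60, 1.55 and 1.46 CPM.

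Hey2 had the reverse order in the vessel wall and was highest in smooth muscle cells. Hey2 (chromosome 10, 30832359 to 30842801, minus strand) was 59.0, 36.9 and 44.7 CPM in smooth muscle cells at P1 and 76.6, 41.1 and 79.4 CPM at P60, with replicate 2 of P60 inside the P1 range. The change of 0.72 ± 0.34 did not pass the test (95% interval 0.042 to 1.39, adjusted p = 0.131), and it passed under 2 of 16 alternatives, as without P60 replicate 2 (0.99, adjusted p = 0.0272). Pericytes held 5.70 ± 3.00 CPM of Hey2 at P1 against 17.8 ± 17.7 CPM at P60, from 13 and 24 UMIs. Summed over all mural cells Hey2 did rise, by 1.68 ± 0.39 with an adjusted p of 0.00749, in a class where 33.1% of 8470 genes changed and 17.7% were higher; smooth muscle cells were 148 of 603 mural cells at P1 and 530 of 865 at P60, so a change per cell and a change in the makeup of the mural cells cannot be told apart in that sum.

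The promoter of Hey2 is shown because it was the only 1 of 8 members with a RefSeq window that holds TGGGAA or TTCCCA. It is chr10:30842734-30843033 (GRCm38.p6, minus strand), and the matches, in capitals, begin at bases 44 and 248 of the window, the former on the reverse strand. Of all 32851 promoter windows of that length, 25.6% hold this motif on either strand. A match is a description of the letters and not a binding site. CACGTG, an E-box that Hey proteins can bind, was in none of the 8 windows and in 7.15% of all.
Hey2: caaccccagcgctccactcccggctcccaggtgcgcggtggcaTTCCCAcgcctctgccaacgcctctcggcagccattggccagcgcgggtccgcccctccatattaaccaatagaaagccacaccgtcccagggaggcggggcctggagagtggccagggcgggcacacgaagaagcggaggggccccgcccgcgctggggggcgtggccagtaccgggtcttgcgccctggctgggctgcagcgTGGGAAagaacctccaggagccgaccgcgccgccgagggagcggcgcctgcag

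Gja4 changed most of the 10 genes, and in opposite directions in the 2 layers of the vessel. Gja4 (chromosome 4, 127311421 to 127314039, minus strand) was 277, 253 and 285 CPM in endothelial cells at P1 and 52.7, 47.8 and 43.3 CPM at P60. No library of 1 age came near the other age. The log2 change was -2.49 ± 0.12, 5.60-fold lower, with an adjusted p of 4.2e-08, and it passed under all 19 alternatives. In pericytes Gja4 was 248, 281 and 299 CPM at P1 and 508, 467 and 321 CPM at P60, without overlap, a rise of 0.61 ± 0.15 with an adjusted p of 0.00737 that was lost without P1 replicate 1 (adjusted p = 0.0563) and with DESeq2 (0.0540). In smooth muscle cells it was 406, 303 and 272 CPM at P1 and 477, 518 and 278 CPM at P60. There the libraries overlapped and the change of 0.51 ± 0.21 did not pass (adjusted p = 0.0743), but without P60 replicate 3, the low library, it was 0.73 with an adjusted p of 0.000234. That library held more stress-response RNA, with Atf3 at 911 CPM in its smooth muscle cells against 394 and 419 CPM in the other P60 libraries, and the part of this was not tested.

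The 3 vascular classes were not in the same order at the 2 ages. At P1 smooth muscle cells, pericytes and endothelial cells had overlapping libraries for Gja4, with means of 327, 276 and 272 CPM. At P60 the mural classes overlapped at 424 and 432 CPM, and endothelial cells were at 47.9 CPM with no overlap. All other classes held at most 8.44 CPM. The promoter of Gja4 is shown as that of the gene with the largest change. It is chr4:127313990-127314289 (GRCm38.p6, minus strand) and holds no TGGGAA or TTCCCA.
Gja4: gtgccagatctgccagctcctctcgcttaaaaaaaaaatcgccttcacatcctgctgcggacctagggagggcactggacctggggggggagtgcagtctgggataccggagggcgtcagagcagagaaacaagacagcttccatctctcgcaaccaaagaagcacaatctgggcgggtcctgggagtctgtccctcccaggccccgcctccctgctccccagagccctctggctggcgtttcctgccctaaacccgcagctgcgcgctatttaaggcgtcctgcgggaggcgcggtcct

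Gja5 (chromosome 3, 96904693 to 97077416, plus strand), the other arterial connexin, was near the limit of detection. It was counted 28 times in endothelial cells at P1 and 20 times at P60, at 5.53, 6.68 and 2.54 CPM against 2.39, 1.49 and 2.12 CPM, and was too low to be tested. The P60 libraries lay below the P1 libraries, but barely. P60 replicate 1 was at 2.39 CPM from 7 UMIs and P1 replicate 3 at 2.54 CPM from 5 UMIs. At such counts the order of the libraries does not show a change. Smooth muscle cells held 5 UMIs and pericytes 4 UMIs at P1, and neither held any at P60.

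In all, 7 of the 10 genes passed the filter on low counts in endothelial cells, and 4 of these 7 were lower at P60 and 0 higher, where 18.9% of the 10903 genes tested were lower, 21.1% were higher and 40.1% changed in either direction. In pericytes 5 genes were tested, and Notch3, Jag1 and Gja4 were higher and 0 lower, where 15.9% of 6966 genes were higher and 29.2% changed. In smooth muscle cells 6 were tested, and Notch1 and Notch3 were higher and 0 lower, where 17.9% of 4525 genes were higher and 34.1% changed. Notch1, with 12 UMIs in them at P1 and 80 at P60, came into this test and into the next count through the P60 libraries. Libraries of the 2 ages did not overlap for 5 of the members tested in endothelial cells, 3 in pericytes and 2 in smooth muscle cells, where this held for 52.7%, 42.1% and 46.9% of the genes tested. With scaling by library size alone in place of TMM the median change of all genes in smooth muscle cells moved to -0.19, and 622 genes were higher and 977 lower there against 811 and 734. Gja5 was not tested in any class, Hey2 and Heyl were not tested in endothelial cells, Hey2 was not tested in pericytes, and Notch4, Dll4 and Hey1 were not tested in the mural classes.

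**Figure D2:**
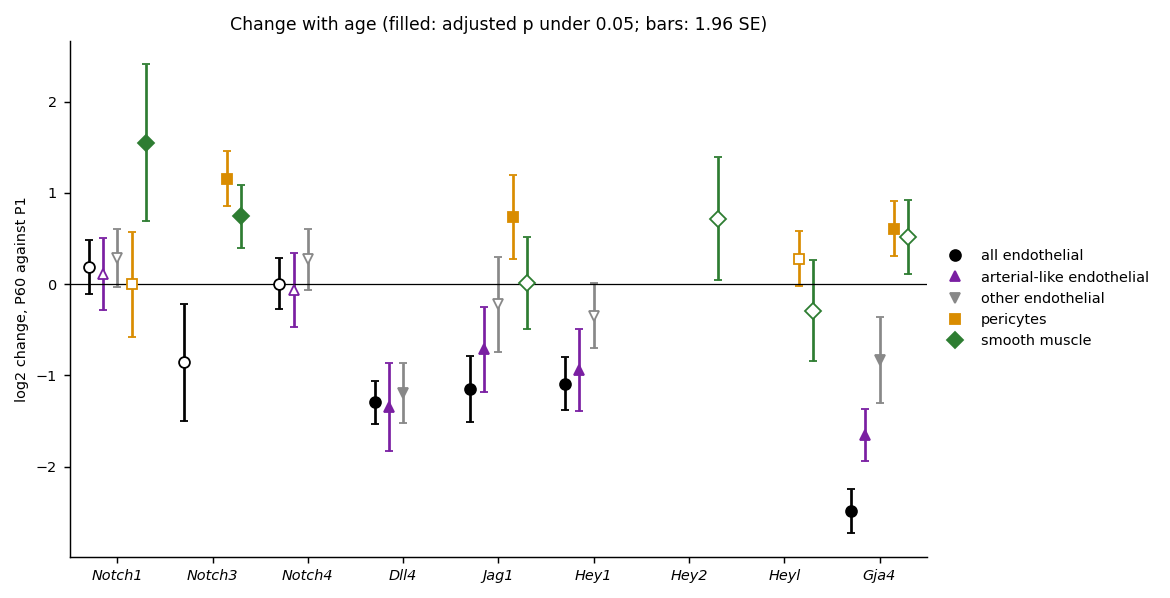
Log2 change from P1 to P60 (vertical axis) of the 9 genes tested in at least 1 class (horizontal axis), in all endothelial cells, arterial-like and other endothelial cells, pericytes and smooth muscle cells. Points are edgeR estimates with bars of the approximate 95% interval from the SE, filled where the adjusted p is under 0.05. Dll4, Jag1, Hey1 and Gja4 lie below 0 in endothelial cells, while Notch3, Jag1 and Gja4 lie above 0 in pericytes.

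Whether endothelial and mural cells changed differently was tested directly, by the interaction of class and age with the library as a block. Of 11354 genes, 17.3% passed this test. Both sums changed in makeup with age, the mural cells as given above for Hey2 and the endothelial cells as given below. A difference in the change per cell and one in makeup therefore cannot be told apart here. Gja4 changed by 3.03 ± 0.13 more on the log2 scale in mural than in endothelial cells (adjusted p = 4.01e-11), and Jag1 by 1.67 ± 0.20 (adjusted p = 9.24e-06). Both passed under all 15 alternatives. For Notch3 the difference was 1.77 ± 0.34 (adjusted p = 0.00102), but it was 0.079 with 20 principal components in the clustering (adjusted p = 0.906), and it passed under 10 of 15 alternatives. Hey1 did not pass, with 1.10 ± 0.40 and an adjusted p of 0.0721, but did under 4 of 15 alternatives, as without P60 replicate 3 (1.40, adjusted p = 0.0214). Between pericytes and smooth muscle cells, where 12.9% of 6678 genes passed, Jag1 differed by -0.79 ± 0.26 for smooth muscle cells minus pericytes (adjusted p = 0.0332) and passed under 6 of 15 alternatives.

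The endothelial fall was next followed in arterial-like cells and in the others. Endothelial cells of each age were clustered again, and 183 cells at P1 and 210 at P60 formed a sub-cluster that was named arterial-like from a list of 12 genes that holds none of the 10, among them Stmn2, Unc5b, Fbln5, Sema3g and Bmx. They were 24.4%, 27.6% and 23.4% of the endothelial cells in the P1 libraries and 13.3%, 12.7% and 9.37% in the P60 libraries, so all P60 libraries held a smaller share. They are set beside the other blood endothelial cells, 404 at P1 and 1354 at P60, which leave out lymphatic-like cells and sub-clusters with markers of other classes. Cxcl12, also on the naming list, went the other way at P60, at 1567 ± 312 CPM in arterial-like cells against 2520 ± 397 CPM in the others, without overlap. At P1 it was 1038 ± 139 against 107 ± 26.9 CPM. The other genes of that list that were counted had higher means in arterial-like cells at both ages. What follows within an age is a description of clusters, without a test.

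Among the 10 genes, the connexins had the largest ratios between arterial-like and other endothelial cells at P1. Gja4 was 836, 722 and 779 CPM in arterial-like cells of the 3 P1 libraries and 28.4, 21.7 and 19.8 CPM in the others, a ratio of 33.4 for the means. Gja5 was counted 28 times in arterial-like cells and 0 times in the others, at least 18.4-fold higher by a limit of 3 counts over the group. Jag1 was 6.68 times and Hey1 4.602 times higher, with 145 against 21.7 CPM and 210 against 45.7 CPM. Dll4, Notch4 and Notch1 differed less, by 1.94, 1.76 and 1.39 times, yet without overlap of libraries. Hey2 was counted 8 times in arterial-like cells and 0 times in the others.

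The same genes were set side by side at P60. Gja4 was 281, 216 and 250 CPM in arterial-like cells and 12.4, 12.5 and 13.95 CPM in the others, a ratio of 19.2. Gja5 was counted 15 times in arterial-like cells and 3 times in the others, which held more UMIs. Its means were 13.3 against 0.38 CPM, a ratio of 34.6 from these few counts. Jag1 was 4.95 times and Hey1 2.93 times higher, Dll4 1.68 times and Notch4 1.39 times. Notch1 differed by 1.24 times with overlapping libraries. Hey2 was 5.15, 1.94 and 41.6 CPM in arterial-like cells against 0.48, 1.01 and 1.23 CPM in the others, so its mean rests on replicate 3. Heyl had 0 UMIs in arterial-like cells at P60 against 13 in the others, which stood at 1.70 CPM. Arterial-like cells held 9.47% to 13.3% of the endothelial UMIs of a P60 library, and the others 71.9% to 73.8%. A count of 0 in the smaller group therefore does not show a lower level of Heyl.

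**Figure D3:**
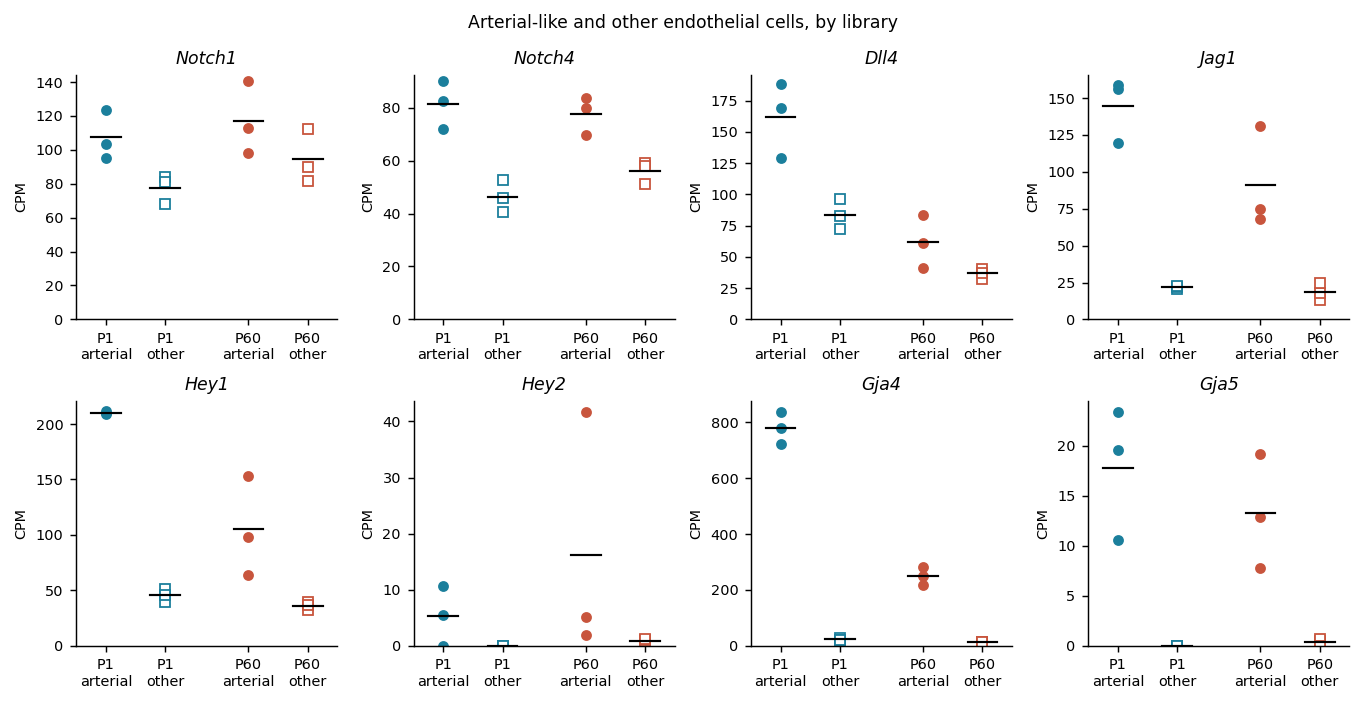
Level in CPM (vertical axes, from 0) of 8 genes in arterial-like (filled circles) and other endothelial cells (open squares) at P1 (blue) and P60 (red). Each point is 1 library and the black line the mean of 3. Gja4 and Gja5 are higher in arterial-like than in other endothelial cells in every library at both ages, and Gja4, Dll4 and Hey1 are lower at P60 than at P1 in arterial-like cells.

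Age was compared within arterial-like cells by the same test, where 14.5% of 6274 genes were lower and 30.3% changed. Gja4 fell in them by 1.65 on the log2 scale with an SE of 0.14 (adjusted p = 5.99e-07), that is 3.15-fold, against 5.60-fold over all endothelial cells. Dll4 fell by 1.35 with an SE of 0.25 (adjusted p = 0.00064), Hey1 by 0.94 with an SE of 0.23 (adjusted p = 0.0058) and Jag1 by 0.71 with an SE of 0.24 (adjusted p = 0.0338). Notch1 and Notch4 did not pass, with changes of 0.11 ± 0.20 and -0.07 ± 0.21.

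In the other endothelial cells, where 17.3% of 9549 genes were lower, 19.7% were higher and 37.0% changed, Dll4 fell by 1.19 with an SE of 0.17 (adjusted p = 7.47e-05) and Gja4 by 0.83 with an SE of 0.24 (adjusted p = 0.0147). Jag1 and Hey1 did not pass, with changes of -0.22 ± 0.27 (95% interval -0.74 to 0.30, adjusted p = 0.561) and -0.34 ± 0.18 (95% interval -0.70 to 0.01, adjusted p = 0.153). Whether the change of any gene differed between arterial-like and other endothelial cells was not tested. Arterial-like cells gave 77.5% of the endothelial UMIs of Gja4, 63.2% of Jag1 and 61.7% of Hey1 at P1, and 61.0%, 38.1% and 29.1% at P60, as means of 3 libraries, and in a sum over all endothelial cells fewer arterial-like cells and less RNA per cell cannot be told apart.

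Other endothelial sub-clusters differed in these genes as well. A P60 sub-cluster of 257 cells led by Ackr1, Selp and Lrg1, genes known from venules, held the lowest pooled levels of Dll4 among P60 endothelial sub-clusters (6.77 CPM) and of Hey1 (3.38 CPM), and 10.2 CPM of Notch4, while Notch1 was at 103 CPM. Lymphatic-like cells, 36 at P1 and 116 at P60, held Notch1 at 52.2 and 159 CPM and almost no Notch4, with 1 and 3 UMIs. They also held Gja4, at 309, 447 and 1562 CPM in the P1 libraries and 97.1, 208 and 103 CPM at P60, from 11 to 13 cells per library at P1. Gja4 was thus not limited to arterial-like cells in the endothelium, and without lymphatic-like cells and sub-clusters with markers of other classes it still passed the test.

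**Figure D4:**
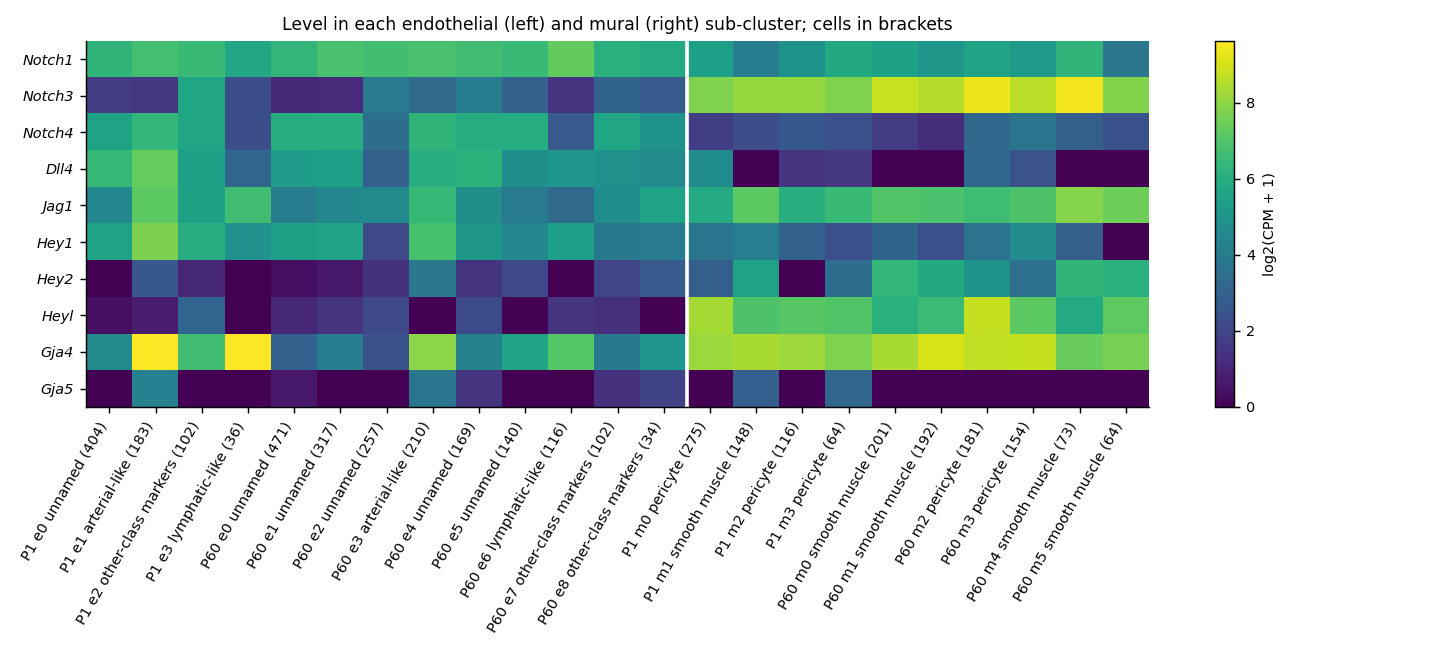
Pooled level as log2(CPM + 1) (colour) of the 10 genes (rows) in each endothelial (e) and mural (m) sub-cluster of P1 and P60 (columns, with the number of cells). Notch1, Notch4, Dll4 and Hey1 are bright on the endothelial side, Notch3 and Heyl on the mural side, and Gja4 in arterial-like and P1 lymphatic-like cells and in all mural sub-clusters.

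Sub-clusters of mural cells differed most in Heyl and Hey2. Heyl reached 437 CPM in a P60 pericyte sub-cluster of 181 cells and 148 CPM in the other pericyte sub-cluster of 154 cells, and at P1 it was 320 CPM in the largest pericyte sub-cluster against 128 and 141 CPM in the other 2. Hey2 was between 56.4 and 81.9 CPM in all 4 smooth muscle sub-clusters at P60 and 47.2 CPM in the only 1 at P1, against 0 to 28.7 CPM in pericyte sub-clusters. Replicate 3 gave 307 of the 530 smooth muscle cells at P60, and the largest P60 sub-cluster, of 201 cells, was led by the stress-response gene Atf3.

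The share of cells in which a gene was found was counted as well. It comes from the same UMIs as the level, and the share expected from the level alone was not computed. The shares therefore do not show whether a level came from many cells or few. Each cell was thinned to 1500 UMIs, and 0 P1 cells and 17 P60 cells of the 3 vascular classes were too shallow and left out. With 3 libraries against 3 the exact permutation test cannot go below 0.1, so no share can pass 0.05. In endothelial cells Gja4 was found in 17.2%, 20.6% and 19.3% of P1 cells and in 6.67%, 6.61% and 5.11% of P60 cells. Dll4 was found in 11.7% ± 1.57 at P1 and 5.86% ± 0.35 at P60, and Hey1 in 11.2% ± 1.03 and 5.61% ± 1.24. These shares did not overlap between the ages, with an exact two-sided permutation p of 0.1 each, the smallest possible. Shares did not overlap for 5 of the 10 genes in endothelial cells, 4 in pericytes and 2 in smooth muscle cells, where this held for 36.1%, 30.5% and 33.6% of the genes tested in these classes. The counts of members include genes too low to be tested, which the percentages leave out, so the 2 are not on the same footing. Fibroblasts, which should lack endothelial genes, held Gja4 in 0.20% ± 0.16 of cells at P1 and 0.36% ± 0.15 at P60, with median depths of 7520 and 5196.5 UMIs before thinning against 6286 and 4481.5 in endothelial cells.

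Notch3 was found in a larger share of mural cells at P60 in every library. Its share was 26.8%, 27.1% and 25.9% of pericytes at P1 and 53.8%, 46.3% and 56.4% at P60, and 32.7%, 26.0% and 28.6% of smooth muscle cells at P1 against 39.8%, 40.9% and 49.2% at P60. The libraries did not overlap in either class (exact permutation p = 0.1, the smallest possible). Fibroblasts held Notch3 in 2.45% ± 0.54 of cells at P1 and 0.53% ± 0.12 at P60. Jag1 was found in 7.53% ± 1.75 of pericytes at P1 and 16.1% ± 4.64 at P60. The share of pericytes with Heyl was 30.2% ± 4.02 at P1 and 29.95% ± 3.93 at P60.

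The wider Notch pathway was read from a list of 62 further genes. In endothelial cells 53 were tested, 14 were higher at P60, 8 were lower and 31 did not pass, and the median change of 0.09 lay near that of all genes tested, 0.02. Over all 10903 genes tested, 21.1% were higher, 18.9% were lower and 40.1% changed. Nrarp, a direct target that feeds back on the pathway, went from 164 ± 8.75 to 52.8 ± 8.64 CPM, a change of -1.61 ± 0.14 (adjusted p = 4.36e-06). Hes6 went from 43.1 ± 0.56 to 17.1 ± 5.14 CPM (-1.29 ± 0.21, adjusted p = 0.000401), although in arterial-like cells alone its change was -0.029, and Dlk1, a Delta-like protein without the usual receptor-binding part, from 264 ± 72.8 to 1.205 ± 0.70 CPM. Aph1b, a subunit of the receptor-cutting gamma-secretase, and the ubiquitin ligases Dtx1 and Dtx3l rose by 2.09 ± 0.38, 1.24 ± 0.41 and 1.21 ± 0.24. By role, of the receptors and ligands tested Jag2 rose and Dlk1 fell, and of the 16 nuclear partners 5 rose, Rbpj among them, and 3 fell.

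In pericytes 37 of the 62 genes were tested, 7 were higher and 2 lower, with a median change of 0.02 against 0.00 over all genes. Of all 6966 genes tested there 15.9% were higher and 13.3% lower. Dlk1 fell from 1280 ± 212 to 73.5 ± 5.50 CPM. Neurl1b and Mib1, ubiquitin ligases that make ligands active, rose by 2.01 ± 0.25 and 1.28 ± 0.34, the nuclear proteins Spen and Ep300 by 1.53 ± 0.40 and 1.43 ± 0.43, and Egfl7, a secreted endothelial protein, by 1.47 ± 0.24. Ep300 passed under 12 of 17 alternatives, Spen under 15 of 16 and Mib1 under 15 of 17. Without the cells that carried markers of the other vascular class the change of Egfl7 was 0.13 (adjusted p = 0.846). Of the 11 capillary genes 5 were tested in pericytes and all 5 were higher, where 15.9% of all genes tested were. They stood at 0.40 to 8.47 CPM at P1 and 31.2 to 49.2 CPM at P60. They thus came into the test through the P60 libraries, and their count is only a description. The summed endothelial markers given above were higher at P60 too. In smooth muscle cells 23 of the 62 genes were tested, 3 were higher and 4 lower, where 17.9% of all 4525 genes were higher and 16.2% lower. Hes1, a Notch target, went from 587 ± 31.1 to 1809 ± 251 CPM (1.81 ± 0.16, adjusted p = 5.11e-06), and Neurl1b and the receptor-cutting protease Adam17 rose by 2.08 ± 0.39 and 1.67 ± 0.45 (Adam17 passed under 9 of 12 alternatives), while Dlk1, the cyclin Ccnd1 and Aph1a, another gamma-secretase subunit, fell. Ccnd1 and Aph1a each passed under 10 of 16 alternatives.

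Lists of arterial, venous and capillary genes set these changes among other genes of vessel identity. Of 17 arterial genes tested in endothelial cells 5 were higher and 10 lower at P60, with a median change of -0.71. Of all 10903 genes tested there 21.1% were higher and 18.9% lower, which also applies to the venous and capillary counts below. Arterial-like cells were a smaller share of endothelial cells at P60. In these sums a change in makeup and a change per cell cannot be told apart. The arterial list shares 12 genes with the markers that named the arterial-like cells. Cxcr4, Igfbp3 and Unc5b changed by -4.09 ± 0.25, -3.24 ± 0.12 and -2.71 ± 0.14, while Cxcl12, Bmx and Mgp rose by 2.58 ± 0.16, 2.44 ± 0.14 and 2.13 ± 0.20. Of 10 venous genes 7 were higher and 1 lower, led by Lrg1, which went from 29.5 ± 8.005 to 472 ± 47.6 CPM, and Ackr1, from 8.09 ± 2.09 to 92.8 ± 5.52 CPM. Vcam1, Selp and Vwf rose by 2.49 ± 0.29, 2.03 ± 0.34 and 1.42 ± 0.11, and Icam1 fell by 1.00 with an SE of 0.13. Of 11 capillary genes 5 were higher and 5 lower: Spock2, Slc2a1, Tfrc, Car4 and the lipid transporter Mfsd2a rose, though Car4 changed by -2.79 in arterial-like cells alone, and Apln, which marks growing vessels, changed by -2.48 ± 0.27. In pericytes Gja1, Fbln5, Igfbp3 and Cxcl12 of the arterial list and Nrp2 and Nr2f2 of the venous list rose, though Nr2f2 passed under 11 of 17 alternatives and had a change of 0.32 (adjusted p = 0.0685) without P60 replicate 3; in smooth muscle cells Cxcl12 fell by 0.78 with an SE of 0.19.

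The genes whose levels were most like each member over 36 sums of class and library, by Pearson's r of log2(CPM + 10) among 9094 genes, are given as a description, since the points share libraries and cell classes. Notch3 was most like Des, Gucy1b3 and Tusc5 (r = 0.984 to 0.979), and Heyl like Stac, Tusc5 and Ndufa4l2 (0.980 to 0.971). Notch4 was most like Arhgef15, Rasip1 and Aqp7 (0.964 to 0.960), Dll4 like Scarf1, Aplnr and Gpihbp1 (0.961 to 0.944), and Notch1 like Sema7a, Itpkb and Notch4 (0.832 to 0.823). Gja4, found in endothelial and mural cells alike, was most like Nrarp (0.969), then Ptp4a3 and Rbpms. Jag1 was nearest to Mfge8 (0.915), Aoc3 and 2310022B05Rik, Hey1 to Tecpr1 (0.879), Pcdh17 and Scarb1, Hey2 to Hspb7 (0.945), Rbm24 and Kcnab1, and Gja5, at its low counts, to Ddx10 (0.697), B4galt3 and Galnt18.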

How the data were processed

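The authors sorted DsRed-positive cells, made 10x Genomics 3′ libraries and counted UMIs with Cell Ranger 2.0.2 on GRCm38.p5, per the submitters' processing notes, and the deposited values are raw counts of UMIs per gene and cell. Cells with 500 to 5000 genes were kept, normalised and clustered per age (Seurat 5.3.0, R 4.3.3), without the 10 genes and the other genes of the Notch pathway, and classes were named from marker lists. No doublets were removed; leaving out the highest Scrublet scores was an alternative. Counts were summed per class and library and tested between ages with edgeR 4.0.16 (filterByExpr, TMM, quasi-likelihood test, Benjamini-Hochberg adjustment over all genes, threshold 0.05), also for the interaction of class and age. On simulated counts for the endothelial comparison, run on 10857 genes, 96.7% of 4-fold and 34.4% of 2-fold changes were recovered. There all genes had the same dispersion, and far fewer genes were changed (66 by 4-fold and 67 by 2-fold) than passed in the data. The recovered shares thus do not give the power of the real comparison. The kept cells of a library held 20092957 to 29371559 UMIs, and the limits of 3 counts cover counting error only. DESeq2 1.42.0, other scalings, filters, clusterings, left-out cells and left-out libraries were alternatives, of which the subsets of endothelial and mural sub-clusters were chosen after seeing the data. The methods give 3 independent suspensions per age of pooled animals, so p-values measure the spread between suspensions.

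The members and the gene lists were chosen with earlier results of these data known. Besides the members, the text names up to 6 genes per list and class, those with the largest change that passed with libraries of the ages not overlapping, and for each member the 3 genes most like it. Igfbp3 in pericytes, Jag2, Rbpj, Atf3 and the genes that lead sub-clusters were named after their values were seen.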

Additional observations from a re-analysis of the deposited data

Results flagged for a closer look

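The age change differed between cell classes, by the interaction of class and age, for 5 results. From endothelial to mural cells the log2 change from P1 to P60 was 3.03 higher for Gja4, 1.67 higher for Jag1 and 1.77 higher for Notch3. Both of these sums changed in makeup with age, so a difference per cell and one in makeup cannot be told apart. From pericytes to smooth muscle cells it was 1.47 higher for Notch1, which rests on 12 UMIs in smooth muscle cells at P1, and -0.79 for Jag1. The Gja4 and Jag1 differences between endothelial and mural cells passed under all 15 alternatives, the Notch3 difference under 10, the Notch1 difference under 5 and the Jag1 difference between the mural classes under 6.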

How the results depend on the processing

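The genes and members called depended on the test, the filter and the cells used. Arterial-like cells alone gave 1904 genes called of 6274 tested (30.3%), in place of 4367 of 10903 (40.1%). Other endothelial cells alone gave 2 members in place of 4. With no filter on low counts 6 members were called in mural cells and 4 in smooth muscle cells, in place of 3 and 2. DESeq2 called 1326 genes in place of 2031 and 1 member in pericytes, and 1 member in smooth muscle cells. For the difference between pericytes and smooth muscle cells 1 member was called with no filter, and 0 with DESeq2 or with another seed, in place of 2. Members whose shares of cells did not overlap numbered 5 in endothelial cells, 8 without thinning and 3 without cells carrying markers of the other vascular class; in pericytes 4, and 2 when thinned to 1000 UMIs; in smooth muscle cells 2, and 1 without those cells. The cause of these shifts was not tested. Over all genes, the shares that did not overlap were counted in the main setting only. Leaving out cells with at least 2 UMIs of the other vascular class's markers took unequal parts of the ages. It kept 180, 271 and 339 of 450, 651 and 715 endothelial cells in the P60 libraries. At P1 it kept 180, 246 and 204 of 209, 272 and 244.

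Leaving out each library in turn gave 3412 to 5012 genes in endothelial cells, 1949 to 3154 in mural cells, 1508 to 2285 in pericytes and 1242 to 1630 in smooth muscle cells. Members called ranged from 4 to 5, 2 to 5, 1 to 4 and 1 to 3 in these classes, from 3 to 4 for the difference between endothelial and mural cells and from 0 to 1 for that between pericytes and smooth muscle cells. Members with shares that did not overlap ranged from 5 to 7 in endothelial cells, 4 to 6 in pericytes and 2 to 3 in smooth muscle cells. Of the members' own values, 516 kept their direction and side of the threshold, 40 lost the call, 29 gained it and 43 turned direction.

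In arterial-like cells alone Icam1 turned to 0.20 and Car4 to -2.79. Of the members' values, Notch3 in endothelial cells passed in the opposite direction with 20 principal components (adjusted p = 0.0142). Notch3 in endothelial cells was 0.66 with another normalization total, 0.76 with another seed, 0.90 with 20 principal components and 0.12 without the highest Scrublet scores. Notch4 in endothelial cells was -0.0091 with library size alone, -0.0024 with DESeq2, -0.12 to 0.094 without each library in turn (-0.00076 without P60 replicate 1), -0.0014 with another seed, -0.0057 with 20 components, -0.063 without high Scrublet scores and -0.066 in arterial-like cells. Notch1 in pericytes was 0.039 with library size alone, -0.36 to 0.29 without each library in turn (0.027 without P1 replicate 3), 0.22 with another seed, 0.0062 with 20 components, 0.082 without high Scrublet scores and 0.14 without middle sub-clusters. Jag1 in smooth muscle cells was -0.19 with library size alone, -0.0074 with DESeq2, -0.26 to 0.24 without each library in turn, -0.056 with another normalization total, -0.028 with 20 components and -0.22 without cells above 10% mitochondrial counts. Between endothelial and mural cells, Notch1 was -0.035 with library size alone, -0.029 to 0.16 without each library in turn, -0.054 with another normalization total, -0.12 without cells carrying markers of the other class and -0.16 without high mitochondrial counts, and Heyl, at -0.17 and not called, passed with another normalization total (-2.67, adjusted p = 5.65e-05), another seed (-2.81, 6.68e-05) and 20 components (-3.20, 5.50e-06), and was -0.76 to 0.22 without each library in turn and 0.064 without high mitochondrial counts. Between pericytes and smooth muscle cells, Gja4 was 0.076 with no filter, -0.19 to 0.17 without each library in turn, 0.21 with another seed and 0.062 without high mitochondrial counts.

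Same-numbered libraries of the 2 ages did not deviate together (r of -0.024 to 0.076), so the numbers were not taken as pairs. With the replicate block 4557 genes were called in endothelial cells, 2712 in mural cells, 2053 in pericytes and 1627 in smooth muscle cells, and 5, 3, 3 and 3 members. Under the block Jag1 in smooth muscle cells was -0.017, and Notch3 in endothelial cells (-0.88) and Gja4 in smooth muscle cells (0.52) passed. The filter on low counts left Gja5, Hey2 and Heyl in endothelial cells and Dll4, Notch4 and Hey1 in mural cells out of the tests.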
